A study of Danio rerio with 12 samples.

Results

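Zebrafish embryos that received the small molecule calindol together with testosterone were compared with embryos that received testosterone alone, in 6 RNA-sequencing libraries out of 12 in the study, 3 on each side. Every gene with enough counts was tested, 20237 in all. All embryos were wild-type zebrafish of the AB strain, taken whole at 3 days after fertilisation, after exposures that began 2 to 4 hours after fertilisation. The groups were 30 µM testosterone with 5 µM calindol, the green tea polyphenol EGCG (epigallocatechin gallate) at 100 µM together with 30 µM testosterone, 30 µM testosterone alone, and the solvent control, 0.1% dimethyl sulfoxide (DMSO). Each group held 1 library from each of clutches 1, 2 and 4, and how many embryos went into a library is not given in the sources used here. The study asked which testosterone-responsive genes depend on GPRC6A, a membrane receptor. Its design describes both added compounds as antagonists of that receptor, EGCG being the stronger and calindol the weaker. No group received calindol without testosterone, so what calindol does alone and what it does to the testosterone response cannot be told apart.

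Testosterone acts through the nuclear androgen receptor, and fish convert part of it to estrogens with aromatase. GPRC6A is a receptor of the same class as the calcium-sensing receptor CaSR, and calindol is known from mammalian cells as a molecule that raises the sensitivity of CaSR to calcium. Foreign chemicals that reach an embryo are met by sensor proteins such as the aryl hydrocarbon receptor (AhR), a transcription factor that binds flat aromatic compounds and switches on the cytochrome P450 enzyme gene cyp1a, and by the transcription factor Nrf2, which governs genes that handle oxidants and reactive compounds.

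The 3 calindol libraries held 16224041 to 19716849 counts and the 3 testosterone libraries 12668572 to 22510680. Levels are given in CPM (each count as a share of its TMM-scaled library), in the order of clutches 1, 2 and 4. Between libraries of the same group, chi-square divided by its degrees of freedom was 6.78 to 23.2, above the value near 1 of pure counting error. Marker genes of heart (myl7), liver (fabp10a), neurons (elavl3), endothelium (cdh5), rods (rho), pigment cells (pmela) and epidermis (krt4) all passed the filter on counts. Some genes that an embryo of this age is known to express had next to no counts in any of the 12 libraries: the muscle genes ckma and mylpfa had 8 and 5 counts in all, the cartilage gene col2a1a had 24, the mitosis kinase cdk1 had 2, and the macrophage and neutrophil markers mpeg1.1 and lyz had 0. A level near 0 in these counts therefore cannot be read as an absence of expression. The receptor genes named in the study were barely counted as well. gprc6a (ENSDARG00000005371) had 2.06, 1.77 and 1.23 CPM with calindol, against 3.19, 2.60 and 1.70 CPM with testosterone alone (adjusted p 0.331, log2 fold change −0.54 ± 0.379 SE), and its libraries overlapped. The CaSR gene, casr, had 5, 1 and 4 counts with calindol, against 4, 9 and 5 with testosterone alone, too few to test.

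Adding calindol to testosterone changed the level of 5225 genes, 25.8% of those tested, at an adjusted p under 0.05 in edgeR's quasi-likelihood test with Benjamini-Hochberg adjustment. Of these, 2231 (11%) were higher with calindol and 2994 (14.8%) were lower. These 2 shares are the background for the counts of called list members given below. Most changes were small: the median absolute log2 fold change of the genes that passed was 0.53, and 761 genes (3.76%) moved at least 1 log2 unit as well, 376 of them higher (1.86%) and 385 lower (1.9%). The log2 fold change throughout is that of testosterone with calindol over testosterone alone, so a positive value means a higher level with calindol. All 3 calindol libraries lay above all 3 testosterone libraries in 17.3% of the genes tested, and below them in 19%. Of the 5225 called genes, 4914 had no overlap between the 2 groups, so a lack of overlap adds little to a call. A fit restricted to the 6 libraries called 3303 genes, 1370 higher and 1933 lower. Fits that left out 1 of the 6 libraries in turn called 4049 to 5456. For scale, the same threshold called 5535 genes (27.4%) for testosterone with calindol against DMSO and 1278 (6.32%) for testosterone alone against DMSO, of which 592 (2.93%) were higher and 686 (3.39%) lower. These comparisons share libraries with the main one.

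**Figure D1:**
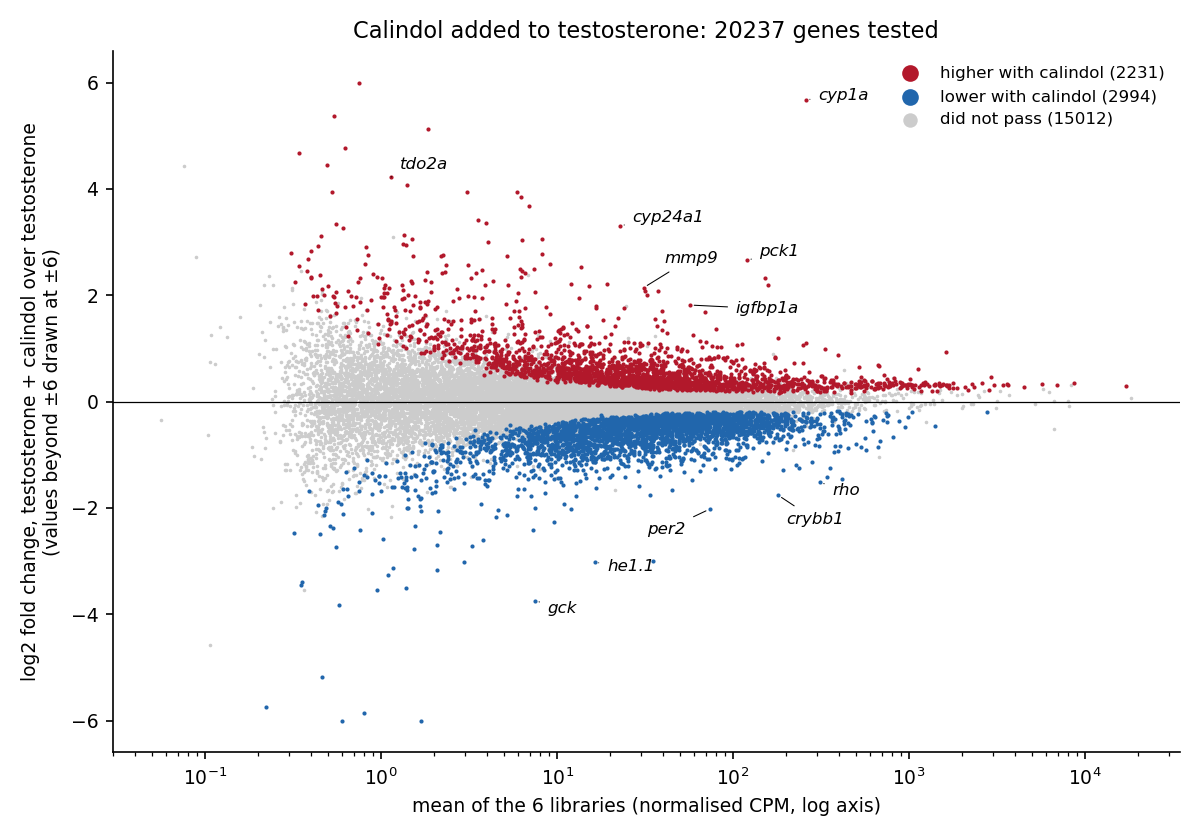
Each point is 1 of the 20237 genes tested. The horizontal axis is the mean CPM of the 6 libraries on a log scale and the vertical axis is the log2 fold change of testosterone with calindol over testosterone alone. Red points passed the threshold higher with calindol (2231), blue points passed lower (2994) and grey points did not pass, with values beyond 6 in size drawn at 6. The gene cyp1a stands above all other genes with a mean of at least 10 CPM, at a log2 fold change of 5.68.

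Among genes with a mean of at least 10 CPM over the 6 libraries, the largest change was in cyp1a, the P450 enzyme gene that is the standard marker of AhR activity. cyp1a (ENSDARG00000098315) had 345, 345 and 834 CPM with calindol, against 10.03, 9.87 and 9.87 CPM with testosterone alone (adjusted p 1.31e-07, log2 fold change 5.68 ± 0.305 SE). The lowest calindol library was more than an order of magnitude above the highest testosterone library, and the other groups were low, with means of 8.48 ± 0.753 CPM in embryos given EGCG with testosterone and 11.2 ± 0.336 CPM in DMSO embryos (SD, n = 3 each). A second AhR-inducible P450 gene, cyp1c2 (ENSDARG00000101789), had 14.5, 12.7 and 18.5 CPM with calindol, against 5.18, 6.23 and 6.20 CPM with testosterone alone (adjusted p 0.000264, log2 fold change 1.36 ± 0.201 SE), without overlap. The forkhead gene foxq1a, a known AhR target in fish, had 26.6, 29.3 and 55.2 CPM with calindol, against 12.1, 11.8 and 9.22 CPM with testosterone alone (adjusted p 0.000111, log2 fold change 1.75 ± 0.227 SE). It too was separated in all libraries. Of the 13 tested genes of the AhR list, 7 were higher and 2 were lower, with a median log2 fold change of 0.33 against 0.01 over all genes tested. The AhR repressor ahrra was higher (adjusted p 0.0114, log2 fold change 1.06 ± 0.278 SE), as was nqo1 (quinone reductase, adjusted p 0.0043, log2 fold change 0.64 ± 0.143 SE). Among the receptor and its partners, ahr2, the main AhR of zebrafish, was slightly higher (adjusted p 0.00303, log2 fold change 0.33 ± 0.0686 SE), ahr1b was lower (adjusted p 0.000674, log2 fold change −0.77 ± 0.129 SE) and so was the neuronal partner gene arnt2 (adjusted p 0.000263, log2 fold change −0.49 ± 0.0714 SE). The targets cyp1d1 and tiparp did not pass (log2 fold changes 0.12 and 0.02), and cyp1b1 and cyp1c1 had no count in any library.

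**Figure D2:**
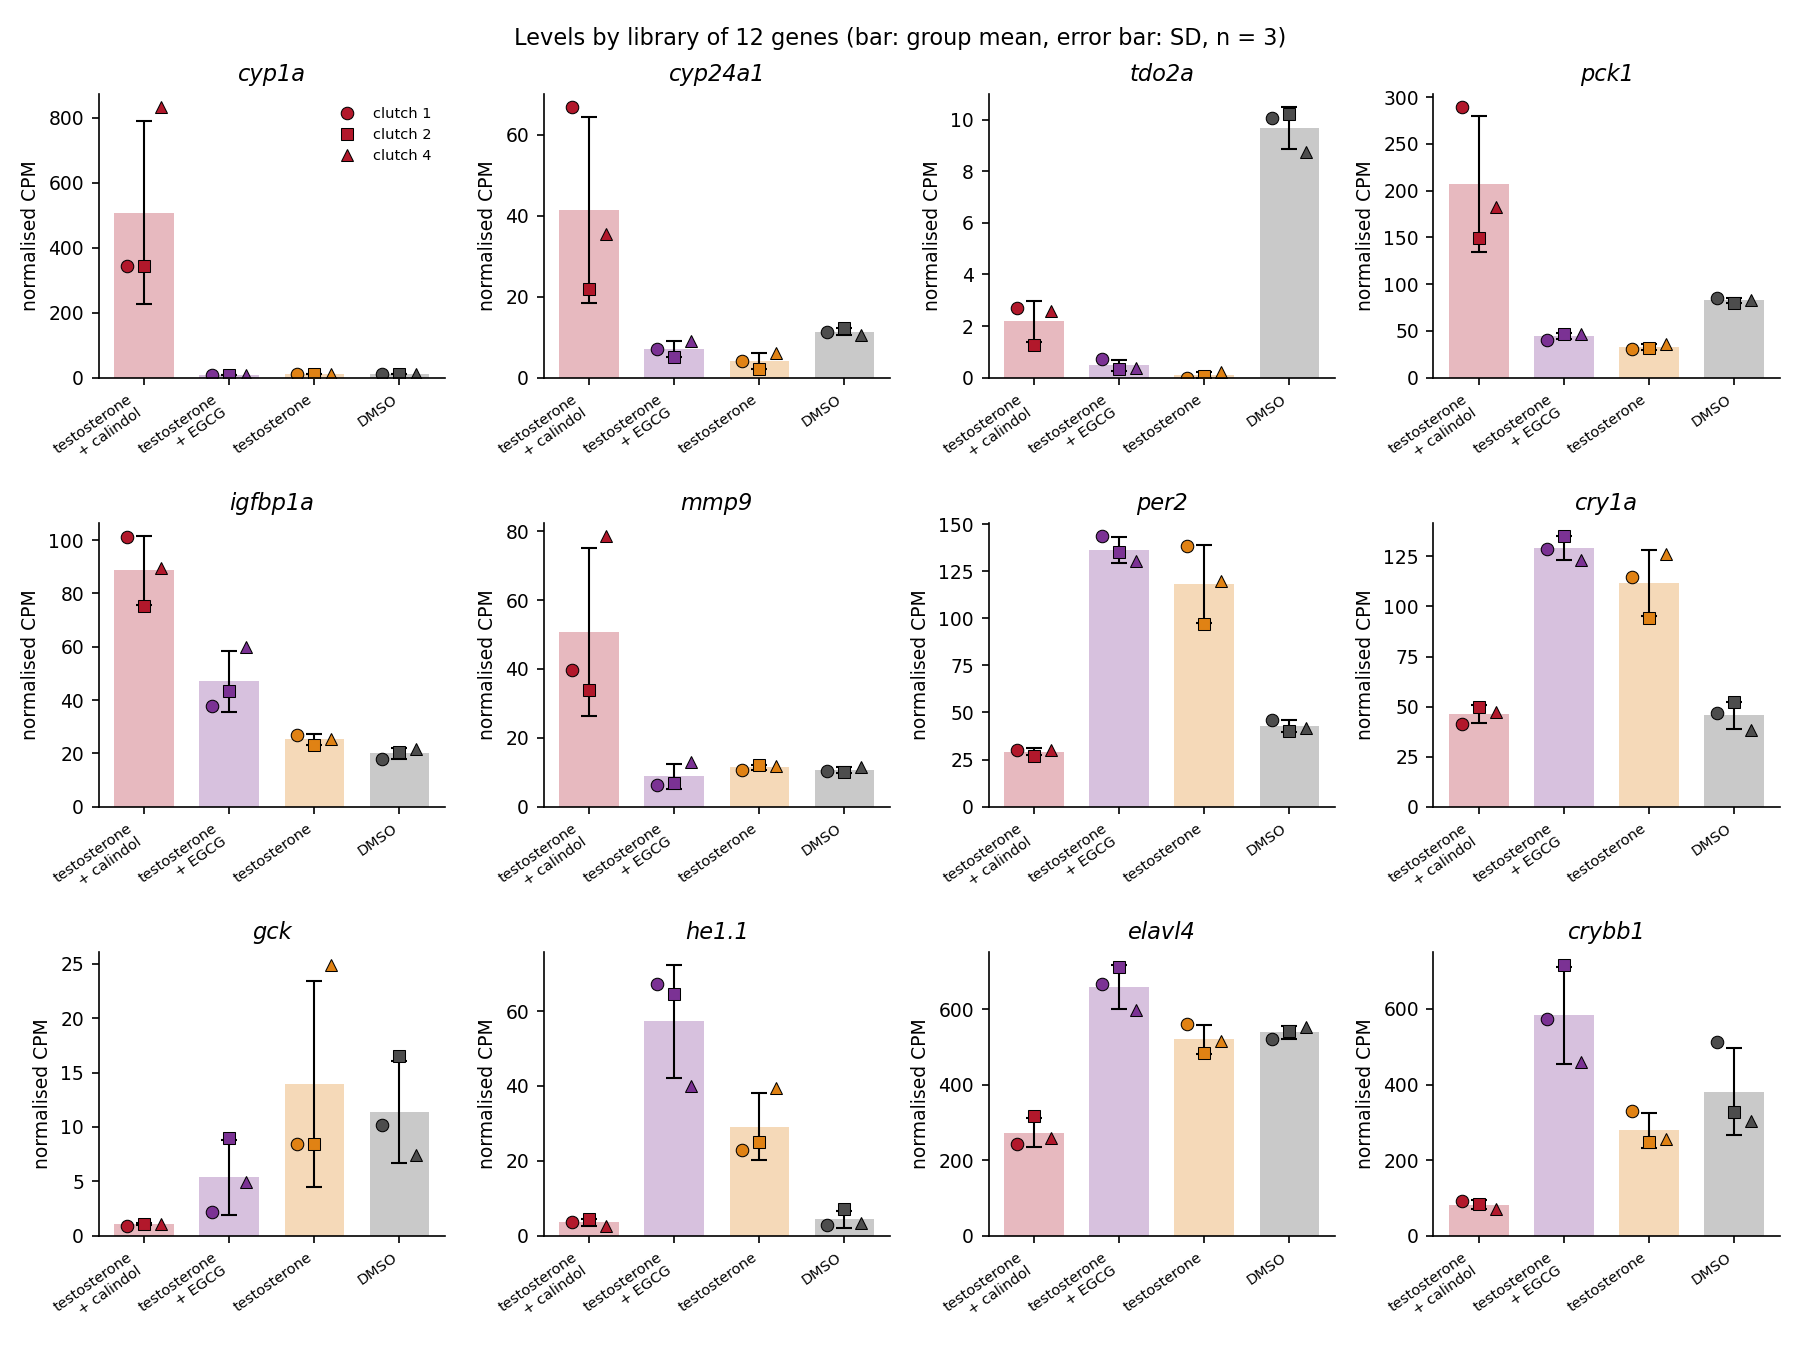
Levels of 12 genes in the 12 libraries, in normalised CPM on linear axes that start at 0. Points are libraries (circle clutch 1, square clutch 2, triangle clutch 4), bars are group means and error bars are the SD of 3 libraries. The calindol libraries of cyp1a lie between 345 and 834 CPM with every other library near 10, and per2 and cry1a are lower with calindol than in both other testosterone groups.

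Of 16 tested Nrf2 response genes, 8 were higher and 1 was lower, with a median log2 fold change of 0.49. The regulator nfe2l2a (ENSDARG00000042824), which encodes Nrf2 itself, had 302, 232 and 296 CPM with calindol, against 173, 159 and 171 CPM with testosterone alone (adjusted p 7.48e-05, log2 fold change 0.72 ± 0.0879 SE). The glutathione transferase gene gstp1 (ENSDARG00000104068), a classic Nrf2 target in zebrafish, had 588, 409.6 and 539 CPM with calindol, against 274, 277 and 280.0 CPM with testosterone alone (adjusted p 4.22e-05, log2 fold change 0.89 ± 0.0989 SE). Neither overlapped between the groups. The autophagy receptor gene sqstm1 was higher (adjusted p 5.84e-05, log2 fold change 1.07 ± 0.126 SE) and so was the second Nrf2 gene nfe2l2b (adjusted p 0.000493, log2 fold change 1.21 ± 0.193 SE), while the heme oxygenase gene hmox1a was lower (adjusted p 0.00681, log2 fold change −0.77 ± 0.185 SE). Among genes of conjugation, which attaches polar groups to foreign compounds and hormones, most did not pass. The glutathione transferase family had 4 of 16 higher (25%), the sulfotransferases 4 of 16 (25%) and the glucuronosyltransferases 5 of 23 (21.7%), against 11% of all genes. None was lower, against 14.8% of all genes, so for the 2 directions together these shares were below the 25.8% of all genes. The sulfotransferase gene sult6b1 (ENSDARG00000086826) had 115, 95.4 and 135 CPM with calindol, against 42.7, 43.5 and 47.2 CPM with testosterone alone (adjusted p 1.17e-05, log2 fold change 1.37 ± 0.119 SE), again without overlap. Of the 9 tested genes of the pregnane X receptor (PXR) list, a sensor of steroids and drugs, 3 of the cyp3 family were higher, cyp3c1 (log2 fold change 0.58, adjusted p 7.73e-05), cyp3a65 (log2 fold change 0.77, adjusted p 0.00204) and cyp3c4, and the receptor gene nr1i2 did not pass (log2 fold change 0.19, adjusted p 0.253). The call of cyp3c4 (log2 fold change 0.82, adjusted p 0.0263) was lost without testosterone clutch 4 or calindol clutch 1 and in the fit of only the 6 libraries, at an adjusted p of up to 0.109. Members of these families share sequence, and how reads mapping to several genes were treated is not given in the sources used here, so single members are uncertain.

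The estrogen and androgen lists were short, and no test compared them with each other. Testosterone alone raised 2 of the 7 tested estrogen genes against DMSO (2.93% of all genes were higher) and lowered none. The brain aromatase gene cyp19a1b (ENSDARG00000098360), which estrogens switch on in radial glia, had 36.4, 51.7 and 60.1 CPM with calindol, against 40.7, 34.3 and 58.4 CPM with testosterone alone (adjusted p 0.623, log2 fold change 0.15 ± 0.187 SE), with overlapping libraries, against 2.58 ± 0.41 CPM in DMSO embryos. Of the 7 tested genes of the estrogen list, none was higher at an adjusted p under 0.05 and 2 were lower, the receptor gene esr2b (adjusted p 0.0114, log2 fold change −0.85 ± 0.223 SE) and the target greb1 (adjusted p 0.000624, log2 fold change −1.08 ± 0.18 SE). The androgen receptor gene ar (ENSDARG00000067976) had 1.14, 1.32 and 1.66 CPM with calindol, against 0.717, 1.41 and 1.09 CPM with testosterone alone (adjusted p 0.674, log2 fold change 0.33 ± 0.481 SE), without a call. Of the 3 tested targets on the androgen list, 2 were higher (66.7%, against 11% of all genes) and none was lower. They were fkbp5 (log2 fold change 0.66, adjusted p 0.00296) and igfbp1a (log2 fold change 1.82, adjusted p 8.57e-06), both described below on other lists. Against DMSO, testosterone alone raised 1 of the 3 androgen targets and lowered 1. The share with calindol rests on very few genes. The call of esr2b was lost in the fit of only the 6 libraries, at 0.0544, and without calindol clutch 2 or calindol clutch 4 the estrogen list had 2 higher genes. Of the vitellogenin genes, which estrogens induce in liver, vtg1 (ENSDARG00000092233) had 16.2, 1.01 and 0.676 CPM with calindol, against 1.27, 1.08 and 3.28 CPM with testosterone alone (adjusted p 0.279, log2 fold change 1.62 ± 1.03 SE), with overlap. The vtg3 gene did not pass either (adjusted p 0.406, log2 fold change 1.24 ± 1.01 SE), and vtg2, vtg4, vtg5, vtg6 and vtg7 were left out of the test by the filter on counts.

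Of 8 tested genes that respond to the glucocorticoid receptor, 5 were higher with calindol and 1 was lower, with a median log2 fold change of 0.73. Of the receptor gene nr3c1 and the cortisol-inactivating enzyme gene hsd11b2, hsd11b2 was higher (adjusted p 0.00925, log2 fold change 0.42 ± 0.106 SE) and nr3c1 did not pass (adjusted p 0.312, log2 fold change −0.21 ± 0.146 SE). The co-chaperone gene fkbp5 (ENSDARG00000028396) had 11.99, 11.5 and 14.6 CPM with calindol, against 8.999, 6.56 and 8.65 CPM with testosterone alone (adjusted p 0.00296, log2 fold change 0.66 ± 0.137 SE). DMSO embryos had 60.3 ± 3.46 CPM, above both, and the 6 libraries did not overlap. The transcription factor gene cebpd (ENSDARG00000087303) had 95.5, 89.6 and 105 CPM with calindol, against 38.6, 44.1 and 49.6 CPM with testosterone alone (adjusted p 1.06e-05, log2 fold change 1.13 ± 0.0958 SE), against 91.3 ± 2.61 CPM in DMSO embryos. The kinase gene sgk1 (adjusted p 0.000959, log2 fold change 0.86 ± 0.151 SE) and the Krüppel-like factor gene klf9 (adjusted p 0.000992, log2 fold change 1.204 ± 0.214 SE) were higher too, and zbtb16a was lower (adjusted p 0.000303, log2 fold change −0.45 ± 0.0682 SE). The summed level of all 10 genes was 282 to 309 CPM with calindol, 209 to 228 CPM with testosterone alone and 331 to 356 CPM with DMSO.

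Of 18 tested genes of calcium sensing and calcium hormones, 3 were higher and 1 was lower, close to the share over all genes. One of them changed strongly. cyp24a1 (ENSDARG00000103277), the enzyme that inactivates vitamin D and a direct target of the vitamin D receptor, had 66.8, 21.96 and 35.6 CPM with calindol, against 3.98, 2.22 and 6.12 CPM with testosterone alone (adjusted p 5.41e-05, log2 fold change 3.31 ± 0.385 SE). All calindol libraries were above all testosterone libraries and above DMSO embryos, at 11.4 ± 0.941 CPM. The stanniocalcin gene stc2b (adjusted p 0.000956, log2 fold change 0.97 ± 0.171 SE) and the parathyroid hormone receptor gene pth1rb (adjusted p 0.0127, log2 fold change 0.76 ± 0.202 SE) were higher, and the calcium pump gene atp2b1a was lower (adjusted p 0.00218, log2 fold change −0.39 ± 0.0787 SE), a call lost after removal of the gene length trend described below, at 0.24.

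Glucose genes of the liver changed in opposite directions. pck1 (ENSDARG00000013522), which encodes the enzyme that commits to glucose synthesis, had 289, 149.8 and 183 CPM with calindol, against 30.3, 31.7 and 36.2 CPM with testosterone alone (adjusted p 1.54e-06, log2 fold change 2.66 ± 0.182 SE). gck (ENSDARG00000068006), glucokinase, which traps glucose in the liver cell, had 0.922, 1.11 and 1.11 CPM with calindol, against 8.44, 8.46 and 24.9 CPM with testosterone alone (adjusted p 0.000243, log2 fold change −3.75 ± 0.545 SE). Neither gene overlapped between the groups: all calindol libraries were high for pck1 and low for gck. The final enzyme of glucose release, g6pca.1 (ENSDARG00000031616), had 19.9, 15.9 and 18.1 CPM with calindol, against 8.92, 9.05 and 8.12 CPM with testosterone alone (adjusted p 0.000238, log2 fold change 1.05 ± 0.152 SE). The insulin-like growth factor binding protein genes, which fasting and stress induce, rose as well. igfbp1a (ENSDARG00000099351) had 101, 75.4 and 89.5 CPM with calindol, against 27.0, 23.2 and 25.4 CPM with testosterone alone (adjusted p 8.57e-06, log2 fold change 1.82 ± 0.149 SE), and igfbp1b was higher by more (adjusted p 0.000492, log2 fold change 2.45 ± 0.393 SE). The coactivator gene ppargc1a was lower (adjusted p 0.0056, log2 fold change −0.59 ± 0.137 SE). In all, 8 of 14 tested genes of glucose metabolism were higher and 2 were lower, and the count of higher genes was 5 in the fit of only the 6 libraries.

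Amino acid breakdown followed. tat (ENSDARG00000069630), tyrosine aminotransferase, had 10.8, 9.82 and 6.45 CPM with calindol, against 0.876, 0.759 and 2.23 CPM with testosterone alone (adjusted p 0.000141, log2 fold change 2.75 ± 0.368 SE), and pah, phenylalanine hydroxylase, was higher (adjusted p 1.49e-05, log2 fold change 0.81 ± 0.0746 SE). tdo2a (ENSDARG00000071429), which opens the tryptophan breakdown pathway, had 2.71, 1.27 and 2.58 CPM with calindol, against 0, 0.0542 and 0.218 CPM with testosterone alone (adjusted p 9.28e-05, log2 fold change 4.23 ± 0.531 SE). Calindol embryos were above testosterone embryos in every library yet well below DMSO embryos, at 9.68 ± 0.806 CPM. Across the liver list, 8 of 19 tested genes were higher and 3 were lower, including the transferrin gene tfa (adjusted p 0.000564, log2 fold change −0.85 ± 0.138 SE). All 7 tested genes of amino acid breakdown had a positive log2 fold change, and 5 of them passed. Of the 11 tested tryptophan genes 4 were higher, but only tdo2a was called in every alternative fit. Without calindol clutch 1, the liver list had 4 higher genes, and without testosterone clutch 1 it had 5. Without testosterone clutch 4 or calindol clutch 2, 1 was lower. Without testosterone clutch 1 or calindol clutch 4, the tryptophan list had 1.

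Cholesterol synthesis, which testosterone alone had already raised (19 of 29 tested genes higher than in DMSO), was higher still with calindol. Of the 29 tested genes, 13 were higher and 1 was lower, with a median log2 fold change of 0.34. The LDL receptor gene ldlra (ENSDARG00000029476) had 70.7, 61.5 and 74.8 CPM with calindol, against 43.2, 40.0 and 47.9 CPM with testosterone alone (adjusted p 0.00027, log2 fold change 0.66 ± 0.0972 SE). Embryos exposed to DMSO had 30.8 ± 1.40 CPM, below both. The enzyme genes mvda (adjusted p 0.00409, log2 fold change 0.61 ± 0.135 SE), sc5d (adjusted p 0.00422, log2 fold change 0.75 ± 0.166 SE) and cyp51 (adjusted p 0.0092, log2 fold change 0.76 ± 0.193 SE) were higher too. The count of higher genes was 7 without testosterone clutch 4 or without calindol clutch 1. In the summed list, calindol libraries held 1279 to 1664 CPM and testosterone libraries 1049 to 1230.0 CPM.

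In the digestive organs, the bile acid regulator gene nr0b2a (adjusted p 0.00976, log2 fold change 1.04 ± 0.266 SE) and the intestinal aminopeptidase gene anpepb (adjusted p 0.0026, log2 fold change 1.49 ± 0.305 SE) were higher, among 4 of 14 tested intestinal and bile acid genes. The call of nr0b2a was lost in the fit of only the 6 libraries, at an adjusted p of 0.0515. Of 16 tested exocrine pancreas genes, 7 were lower with testosterone alone than with DMSO (3.39% of all genes were). With calindol 2 were higher (12.5%, near the 11% of all genes) and none was lower. These 2 were the carboxyl ester lipase genes cel.1 (adjusted p 0.00296, log2 fold change 1.46 ± 0.305 SE) and cel.2. The summed level of the 16 genes was 99.6 to 254 CPM with calindol, 52.1 to 164 CPM with testosterone alone and 319 to 394 CPM with DMSO. Without testosterone clutch 4 the pancreas list had 4 higher genes, and without testosterone clutch 2 it had 1 higher and 2 lower. The call of cel.2 (log2 fold change 1.17, adjusted p 0.0242) was lost without testosterone clutch 1 or 2 or calindol clutch 2 or 4 and in the fit of only the 6 libraries, at an adjusted p of up to 0.0937. Apolipoproteins split, with 4 of 22 higher (18.2%) and 5 lower (22.7%), against 11% and 14.8% of all genes. Among the lower ones were apoa4a (adjusted p 0.00277, log2 fold change −1.29) and the apolipoprotein B genes apobb.2 (adjusted p 0.000396, log2 fold change −0.62 ± 0.096 SE) and apoba (adjusted p 0.00547, log2 fold change −0.48 ± 0.111 SE). A further apolipoprotein B gene, apobb.1, was among the 50 most abundant genes and did not pass (adjusted p 0.171, log2 fold change 0.31). Higher apolipoproteins numbered 2 without testosterone clutch 4 or calindol clutch 1 and 7 without calindol clutch 2, where 3 were lower.

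Of 11 tested genes of neutrophils and inflammation, 8 were higher and none was lower, with a median log2 fold change of 0.85. mmp9 (ENSDARG00000042816), a matrix protease made by neutrophils and wounded epidermis, had 39.7, 33.8 and 78.6 CPM with calindol, against 10.5, 12.03 and 11.7 CPM with testosterone alone (adjusted p 0.000128, log2 fold change 2.14 ± 0.283 SE). The collagenase gene mmp13a (ENSDARG00000012395) had 12.1, 8.60 and 15.3 CPM with calindol, against 3.58, 1.57 and 3.49 CPM with testosterone alone (adjusted p 0.000228, log2 fold change 2.06 ± 0.297 SE), while a second gene identifier with the same symbol did not pass (log2 fold change 0.82, adjusted p 0.0832). These copies may share reads. In addition, the neutrophil protease gene npsn was higher (adjusted p 0.00126, log2 fold change 0.65 ± 0.12 SE). For each of these 3 genes every calindol library exceeded every testosterone library. The immune metabolism gene irg1l (ENSDARG00000062788) had 109, 90.6 and 68.7 CPM with calindol, against 47.2, 41.1 and 34.2 CPM with testosterone alone (adjusted p 0.000369, log2 fold change 1.14 ± 0.176 SE), against 89.97 ± 20.3 CPM in DMSO embryos. Of 30 tested chemokines and receptors 11 were higher and 1 was lower, with cxcl18a.1 (adjusted p 0.000801, log2 fold change 1.56 ± 0.268 SE) and ccl34a.4 (adjusted p 0.00102, log2 fold change 1.90 ± 0.338 SE) smallest in p. The fold change was larger for the rarer ccl34a.3 (adjusted p 0.0036, log2 fold change 3.26 ± 0.704 SE). The count of higher chemokine genes was 7 without testosterone clutch 1 or without calindol clutch 1. On the neutrophil list, the enzyme gene mpx was also among those higher (adjusted p 0.00328, log2 fold change 0.61 ± 0.131 SE). Of 8 tested macrophage genes 2 were higher (25%, against 11% of all genes) and none was lower, with a median log2 fold change of 0.14. The summed level of the macrophage list was 701 to 1113 CPM with calindol and 801 to 894 CPM with testosterone alone, with overlap. Whether more immune cells or more RNA per cell stood behind these values cannot be told apart in bulk RNA, and the same holds for every tissue here, where fewer cells of a type and less RNA per cell give the same value.

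Lysosome genes moved in the same direction. Of 18 tested cathepsin genes, the digestive proteases of lysosomes, 12 were higher and 1 was lower (a ctslb gene, which is also on the hatching gland list), with a median log2 fold change of 0.67. The most abundant, ctsla (ENSDARG00000007836), had 2730.2, 1810.3 and 1853 CPM with calindol, against 987, 1275 and 1097 CPM with testosterone alone (adjusted p 0.000589, log2 fold change 0.93 ± 0.153 SE). That gene was among the 50 most abundant in the libraries compared. Cathepsin A (ctsa, adjusted p 0.000509, log2 fold change 0.69 ± 0.111 SE), cathepsin L.1 (ctsl.1, adjusted p 0.000331, log2 fold change 1.33 ± 0.202 SE) and cathepsin O followed. ctso (ENSDARG00000052855) had 8.03, 3.85 and 5.53 CPM with calindol, against 0, 0.922 and 0.131 CPM with testosterone alone (adjusted p 0.000296, log2 fold change 3.95 ± 0.592 SE), against 5.33 ± 0.528 CPM in DMSO embryos. Of 18 tested subunits of the vacuolar proton pump, which acidifies lysosomes, 11 were higher and 2 were lower. Of the 2 lower subunits, atp6v0a1b (adjusted p 0.0033, log2 fold change −0.69 ± 0.147 SE) is the one known from neurons. The other was atp6v0a2b (adjusted p 0.0157, log2 fold change −0.86). Its call was lost without testosterone clutch 1 or calindol clutch 4, at an adjusted p of up to 0.0841. Without testosterone clutch 4, 7 pump subunits were higher.

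The unfolded protein response of the endoplasmic reticulum had 6 of 10 tested genes higher, among them the chaperone gene calr (adjusted p 0.00168, log2 fold change 0.42 ± 0.0808 SE) and the regulator xbp1 (adjusted p 0.0023, log2 fold change 0.39 ± 0.0785 SE). Summed over the 10 genes, calindol libraries held 1973 to 2094 CPM, testosterone libraries 1503 to 1865 CPM and DMSO libraries 1971 to 2044 CPM. In the amino acid response, atf3 (ENSDARG00000007823), a stress transcription factor, had 56.8, 69.8 and 52.0 CPM with calindol, against 24.4, 18.5 and 20.3 CPM with testosterone alone (adjusted p 2.86e-05, log2 fold change 1.51 ± 0.158 SE). The 6 libraries did not overlap for it. The p53 response had 4 of 10 higher, with the cell death gene bbc3 (adjusted p 0.000535, log2 fold change 0.94 ± 0.152 SE) and gadd45aa (adjusted p 0.00133, log2 fold change 0.91 ± 0.169 SE). Of 17 tested hypoxia genes 7 were higher, the smallest p-values being those of igfbp1a, pfkfb3 (adjusted p 6.45e-05, log2 fold change 0.97 ± 0.115 SE) and igfbp1b, while the regulator hif1ab was lower (adjusted p 0.000994, log2 fold change −0.35 ± 0.0626 SE). The summed hypoxia list was 1297 to 1417 CPM with calindol, 1148 to 1187 CPM with testosterone alone and 1351 to 1382 CPM with DMSO. Of 12 tested heat shock genes 1 was higher (hspb1, adjusted p 0.00464, log2 fold change 0.65 ± 0.147 SE) and the regulator hsf1 was lower (adjusted p 0.00112, log2 fold change −0.47 ± 0.084 SE). The median log2 fold change of that list was 0.62, with 8 of 12 positive, and hsp70l had 1.80 without passing (adjusted p 0.051). Without calindol clutch 4, 7 heat shock genes were higher.

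**Figure D3:**
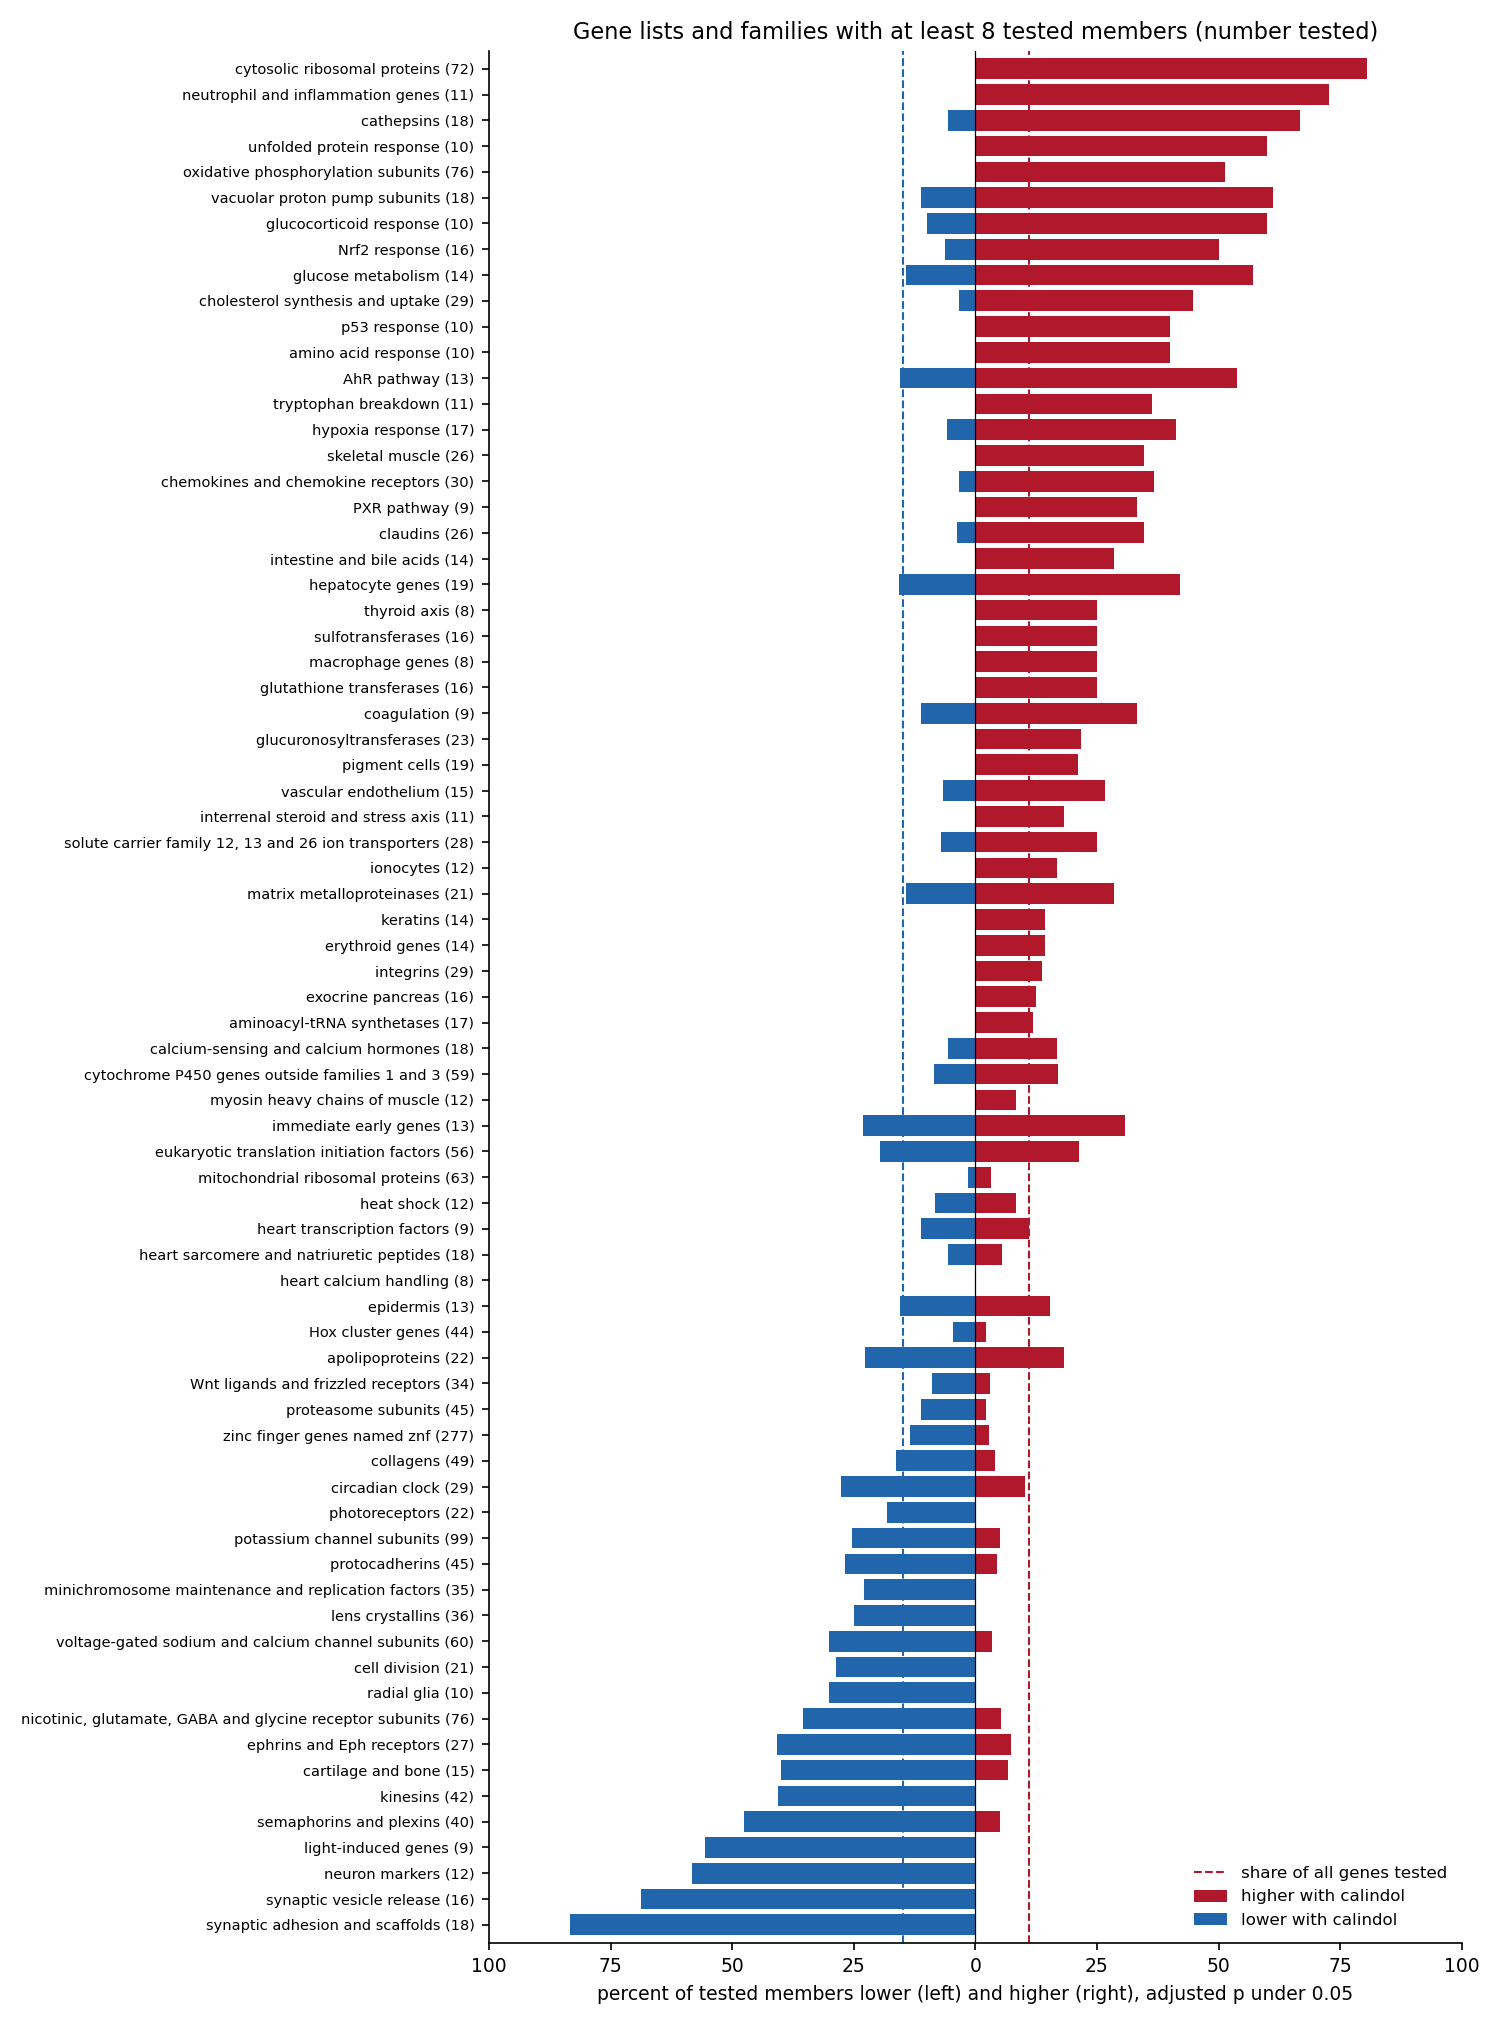
Share of the tested members of each gene list or symbol family that passed the threshold (adjusted p under 0.05), lower with calindol to the left in blue and higher to the right in red. The number of members tested is in brackets, and lists with at least 8 are drawn. The dashed lines are the shares of all 20237 genes, 14.8% lower and 11% higher. Ribosomal proteins, inflammation genes and cathepsins stand at the top and synaptic and neuron lists at the bottom.

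In zebrafish, light acts on cells directly and induces clock repressors and DNA repair genes. Of 9 tested genes of this response, 5 were lower and none was higher, and all 9 had a negative log2 fold change (median −0.86). per2 (ENSDARG00000034503), a clock repressor induced by light, had 30.3, 27.0 and 29.9 CPM with calindol, against 138, 96.9 and 119.6 CPM with testosterone alone (adjusted p 1.36e-07, log2 fold change −2.02 ± 0.112 SE). cry1a (ENSDARG00000045768) had 41.4, 49.95 and 47.2 CPM with calindol, against 115, 94.0 and 126 CPM with testosterone alone (adjusted p 1.61e-05, log2 fold change −1.27 ± 0.119 SE). No calindol library reached a testosterone library for either gene. DMSO embryos had 42.6 ± 3.17 CPM of per2, above the calindol embryos (log2 fold change −0.55, adjusted p 0.00196 for calindol with testosterone over DMSO), and 45.7 ± 6.81 CPM of cry1a (log2 fold change 0.02, adjusted p 0.94), whereas embryos given EGCG with testosterone had 136 ± 6.79 and 129 ± 5.99 CPM. The photolyase gene cry5, which repairs DNA damage from ultraviolet light, was lower (adjusted p 6.46e-06, log2 fold change −1.78 ± 0.141 SE), as was the repair gene xpc (adjusted p 4.66e-05, log2 fold change −0.86 ± 0.0976 SE). Of 29 tested clock genes 3 were higher (10.3%, near the 11% of all genes), among them the repressors nr1d4b (adjusted p 0.000542, log2 fold change 0.98 ± 0.16 SE) and ciarta (adjusted p 0.000359, log2 fold change 0.52 ± 0.0801 SE). A further 8 were lower (27.6%, against 14.8% of all genes), among them per3 (adjusted p 1.77e-05, log2 fold change −1.102 ± 0.106 SE). The count of lower clock genes was 4 without testosterone clutch 4 and 5 without calindol clutch 1. The time of day and the lighting at collection are not given in the sources used here, and their part in these values was not tested.

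Hatching gland enzymes digest the egg envelope and are made by gland cells that disappear after hatching. he1.1 (ENSDARG00000023656) had 3.69, 4.40 and 2.58 CPM with calindol, against 22.8, 25.1 and 39.3 CPM with testosterone alone (adjusted p 3.1e-05, log2 fold change −3.02 ± 0.323 SE), and he1.2, a near copy that may share its reads, was lower too (adjusted p 0.000466, log2 fold change −2.71 ± 0.431 SE). DMSO embryos had 4.38 ± 2.28 CPM of he1.1, so calindol embryos and DMSO embryos were low while testosterone embryos and embryos given EGCG with testosterone, at 57.2 ± 15.1 CPM, were high. Of 6 tested genes of the gland 3 were lower. Their summed level was 38.7 to 47.0 CPM with calindol and 64.6 to 84.4 CPM with testosterone alone.

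Of 12 tested neuron markers 7 were lower and none was higher, with a median log2 fold change of −0.83, and the summed level of the list was 1577 to 2194 CPM with calindol, 2683 to 3063 CPM with testosterone alone and 3147 to 3227 CPM with DMSO. The RNA-binding protein gene elavl4 (ENSDARG00000045639) had 243, 316 and 259 CPM with calindol, against 561, 483 and 516 CPM with testosterone alone (adjusted p 2.6e-05, log2 fold change −0.93 ± 0.0962 SE). elavl3 (ENSDARG00000014420), the usual marker of young neurons, had 232, 321 and 262 CPM with calindol, against 479, 461 and 515 CPM with testosterone alone (adjusted p 5.41e-05, log2 fold change −0.84 ± 0.097 SE). No calindol library reached the lowest testosterone library for either gene. The tubulin gene tubb5 (adjusted p 5.23e-05, log2 fold change −0.84 ± 0.097 SE) and the growth cone gene stmn2b (adjusted p 0.000106, log2 fold change −1.04 ± 0.133 SE) were lower as well. Other neuron genes did not pass: the membrane fusion gene snap25a, of the vesicle list below, had a log2 fold change of 0.02 (adjusted p 0.913), gap43 of −0.19 (adjusted p 0.231) and stmn2a of −0.07 (adjusted p 0.642).

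Of 16 tested genes of synaptic vesicle release 11 were lower and none was higher (median log2 fold change −0.69). stxbp1a (ENSDARG00000001994), which readies vesicles for fusion, had 118, 159 and 137 CPM with calindol, against 345, 269.5 and 333 CPM with testosterone alone (adjusted p 1.66e-05, log2 fold change −1.19 ± 0.113 SE). sv2a (ENSDARG00000059945), a vesicle membrane protein, had 110.5, 166 and 143 CPM with calindol, against 375, 263 and 361 CPM with testosterone alone (adjusted p 7.53e-05, log2 fold change −1.25 ± 0.153 SE). The groups did not overlap for either gene. Of 18 tested synaptic adhesion and scaffold genes 15 were lower, with the neuroligin genes nlgn3b (adjusted p 3.1e-05, log2 fold change −1.40 ± 0.149 SE) and nlgn2a (adjusted p 0.000101, log2 fold change −1.10 ± 0.14 SE) and the neurexin gene nrxn2a (adjusted p 0.000213, log2 fold change −1.12 ± 0.159 SE). Without testosterone clutch 4, and in the fit of only the 6 libraries, 9 of the adhesion genes were lower. Testosterone alone called none of the 12 neuron markers, 1 of the 16 vesicle genes and none of the 18 adhesion genes against DMSO at the same threshold. That comparison called only 6.32% of all genes, so few calls in lists of this size do not set them apart.

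Most ion channel and transmitter receptor genes did not pass, and those that did were mainly lower. Of 76 tested subunits of nicotinic, glutamate, GABA and glycine receptors, 27 were lower and 4 were higher. The lower ones included the NMDA receptor subunit grin2da (adjusted p 0.000357, log2 fold change −1.26 ± 0.193 SE), the metabotropic glutamate receptor grm5a (adjusted p 0.000191, log2 fold change −0.90 ± 0.126 SE) and the glycine receptor glra1 (adjusted p 0.000723, log2 fold change −0.59 ± 0.0995 SE). The 4 higher ones included chrnb1 (adjusted p 0.00437, log2 fold change 1.36 ± 0.304 SE), a subunit of the nicotinic receptor of the muscle synapse. Of 60 tested sodium and calcium channel subunits 18 were lower and 2 were higher, with cacng3b (adjusted p 0.000148, log2 fold change −1.26 ± 0.17 SE) lowest in p. Of 99 tested potassium channel subunits 25 were lower (25.3%, against 14.8% of all genes) and 5 were higher, and without calindol clutch 1 the counts were 16 lower and 2 higher. The fit of only the 6 libraries called 17 receptor subunits, 9 sodium and calcium channel subunits and 12 potassium channel subunits lower. In that fit 1933 of all 19664 genes were lower, a smaller share than the 14.8% of the main fit.

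Of 40 tested semaphorin and plexin genes 19 were lower and 2 were higher, and of 27 tested ephrin and Eph receptor genes 11 were lower and 2 were higher. plxna3 (ENSDARG00000007172), a semaphorin receptor, had 58.9, 69.1 and 63.0 CPM with calindol, against 118, 95.8 and 114 CPM with testosterone alone (adjusted p 5.41e-05, log2 fold change −0.78 ± 0.0907 SE). Of 42 tested kinesins, motors that carry cargo along microtubules, 17 were lower and none was higher, among them the neuronal motors kif5aa (adjusted p 4.22e-05, log2 fold change −0.97 ± 0.108 SE) and kif1ab (adjusted p 0.000332, log2 fold change −1.05 ± 0.159 SE). Radial glia, the stem cells of the fish brain, had 3 of 10 genes lower (30%, against 14.8% of all genes). One of these was the glutamate transporter gene slc1a2b (ENSDARG00000102453), which had 151, 223 and 186 CPM with calindol, against 565, 402 and 528 CPM with testosterone alone (adjusted p 2.48e-05, log2 fold change −1.42 ± 0.144 SE). The myelin gene mbpb, of the glia that wrap axons, had a log2 fold change of 0.20 (adjusted p 0.0305), a call lost in 4 of 13 alternative fits at up to 0.0886. Of 13 tested immediate early genes, which stimuli induce within minutes, 4 were higher, junba (log2 fold change 0.82), ier2a (0.62), junbb (0.56) and jun (0.51), and 3 were lower, egr1 (−0.81), egr3 (−0.70) and npas4a, with a median of 0.29. The calls of junbb (without calindol clutch 4, adjusted p 0.0836), egr1 (without testosterone clutch 1 or calindol clutch 4, up to 0.0679) and egr3 (without testosterone clutch 4, calindol clutch 1 or calindol clutch 2 and in the fit of only the 6 libraries, up to 0.12) were lost in some fits. The gene npas4a (ENSDARG00000055752), which firing neurons induce, had 2.44, 3.34 and 3.75 CPM with calindol, against 15.9, 5.85 and 11.2 CPM with testosterone alone (adjusted p 0.000748, log2 fold change −1.77 ± 0.303 SE).

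**Figure D4:**
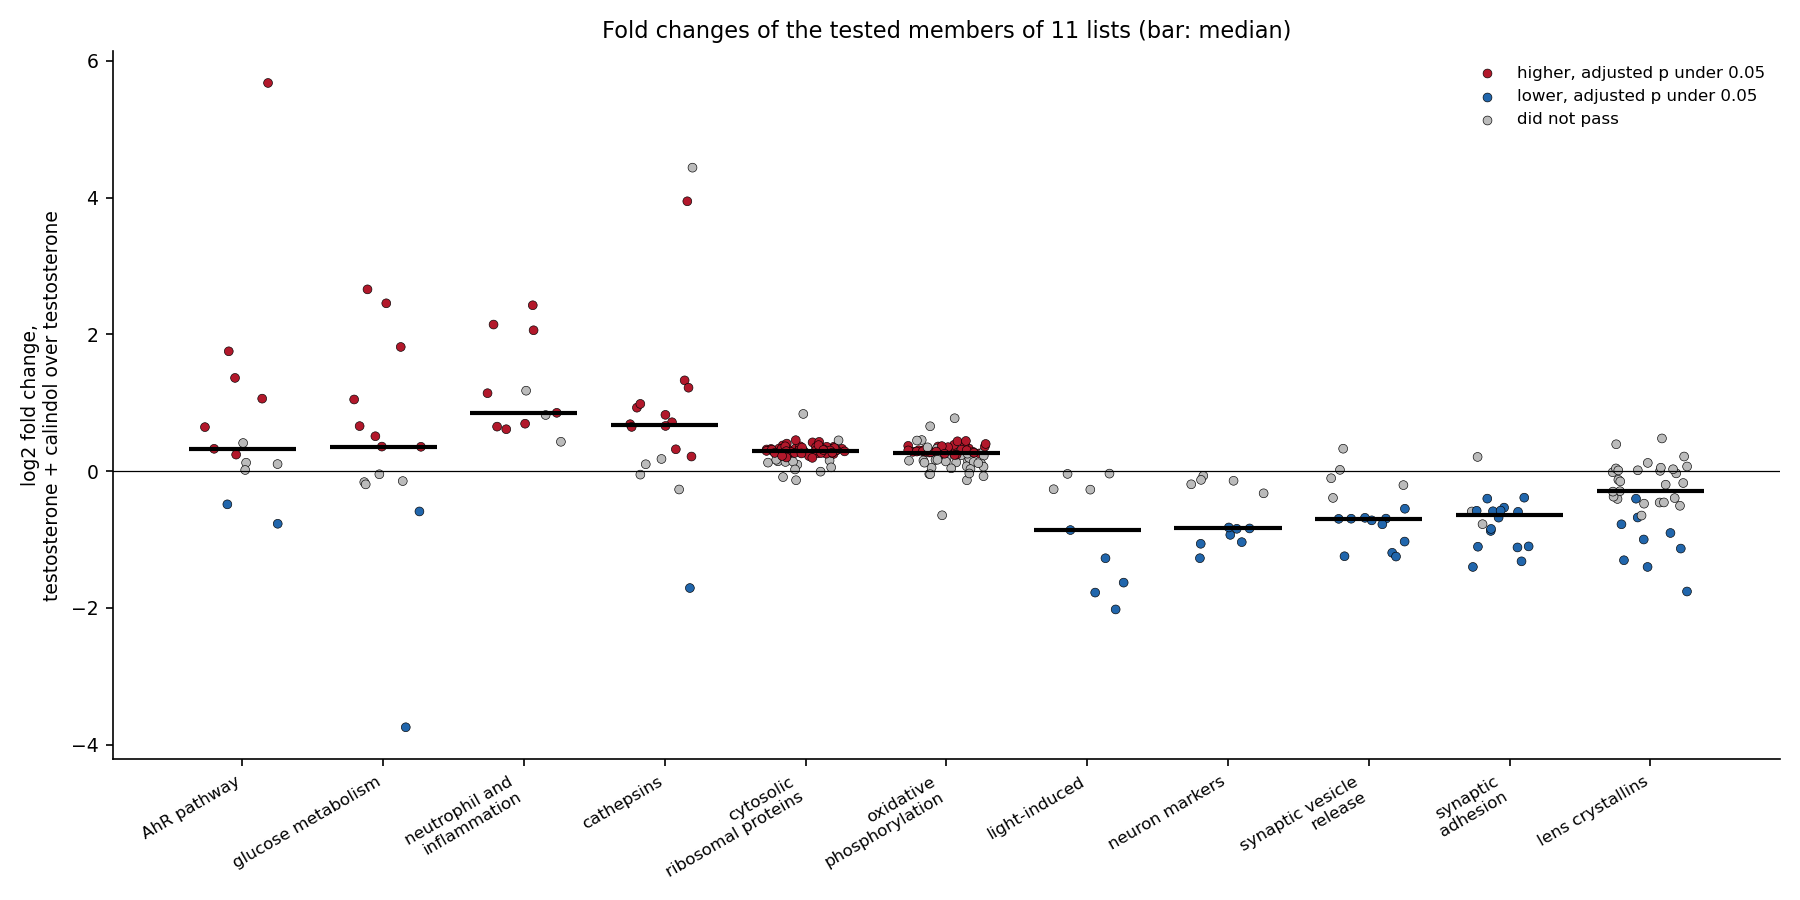
Log2 fold change of testosterone with calindol over testosterone alone for every tested member of 11 lists. Each point is a gene, red where it passed higher, blue where it passed lower and grey where it did not pass, and the black bar is the list's median. Ribosomal and oxidative phosphorylation genes lie mostly above 0 (69 of 72 and 70 of 76, medians 0.30 and 0.26). Neuron and synapse genes lie mostly below it (medians −0.83, −0.69 and −0.64).

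Fold changes also followed the length of the gene. Gene spans, from start to end of the RefSeq gene model in the assembly GRCz12tu, were matched by symbol for 85.9% of tested genes. In the shortest decile (up to 4529 bases) the median log2 fold change was 0.10, with 14.1% of genes higher and 9.89% lower. In the longest decile (105536 bases and over) it was −0.23, with 4.83% higher and 34.2% lower. Each calindol library showed this: relative to the mean of all 12 libraries, the median of the longest decile was −0.30, −0.15 and −0.23 in the calindol libraries and 0.05, −0.05 and 0.02 in the testosterone libraries. The EGCG libraries had 0.24, 0.22 and 0.15, the other way, and the DMSO libraries 0.05, 0.04 and 0.11. Many synaptic and guidance genes are long, so the counts of lower neuron, synapse, channel and guidance genes were taken again after removal of the span trend from each library. In that fit 2685 of all 20237 genes were lower, against 2994 in the main fit. It called 4958 genes, 4337 of them shared with the main fit. Of the 18 synaptic adhesion genes 12 were then lower, of the 16 vesicle genes 11 and of the 12 neuron markers 7. Among 76 receptor subunits 22 were lower, among 60 sodium and calcium channels 11 and among 99 potassium channels 22. The counts were 13 of 42 kinesins, 9 of 40 semaphorins and plexins and 7 of 27 ephrins and Eph receptors. In the neuron list, the members that were lower had a median span of 18038 bases and the others 18298. Lower adhesion genes were shorter (310046 against 569169 bases for members that did not pass). Lower members of the remaining lists were longer than those that did not pass. The medians were 230697 against 84514 for semaphorins and plexins, 129764 against 52342 for receptor subunits and 83753 against 35499 for kinesins. They were 141043 against 91911 for ephrins and Eph receptors and 57941 against 39457 for vesicle genes.

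**Figure D5:**
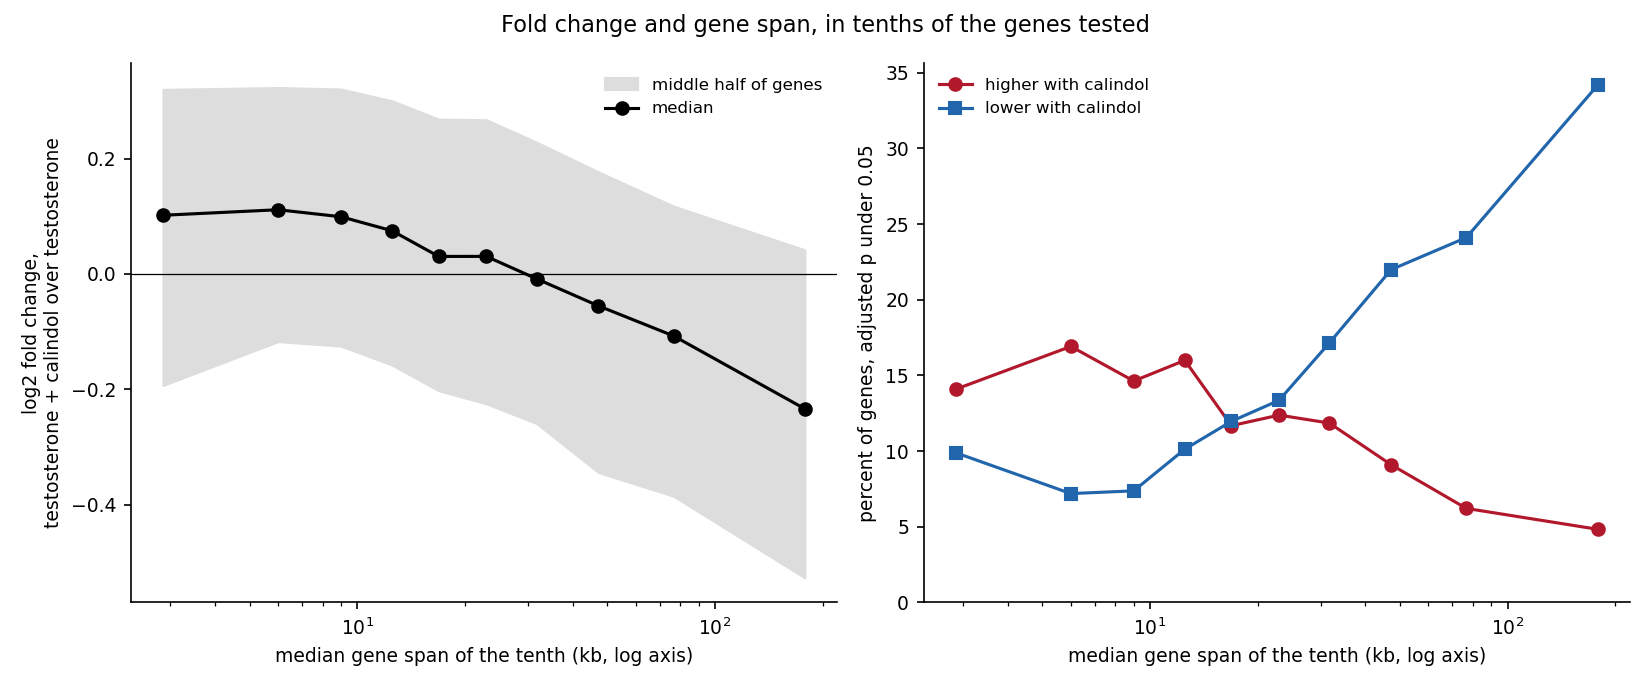
Genes tested, in deciles by gene span, with the median span of each decile on a log axis in kilobases. Left, the median log2 fold change of testosterone with calindol over testosterone alone (line) and the interquartile range (grey band). Right, the percent of genes that passed the threshold higher (red circles) or lower (blue squares). From the shortest to the longest decile the share lower goes up to 34.2% and the share higher goes down to 4.83%.

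In the eye, rho (ENSDARG00000002193), rhodopsin of the rods, had 92.9, 192 and 198 CPM with calindol, against 605, 227 and 553 CPM with testosterone alone (adjusted p 0.0022, log2 fold change −1.52 ± 0.304 SE). The photoreceptor transcription factor gene crx (ENSDARG00000011989) had 17.2, 32.3 and 26.2 CPM with calindol, against 47.5, 53.6 and 71.3 CPM with testosterone alone (adjusted p 0.000435, log2 fold change −1.19 ± 0.188 SE). Neither gene overlapped between the groups, and testosterone clutch 2 was the lowest testosterone library for rho but not for crx. Of 22 tested photoreceptor genes 4 were lower (18.2%, near the 14.8% of all genes) and none was higher, and without testosterone clutch 2 the count was 11 lower. Summed over the list, calindol libraries held 1619 to 3694 CPM and testosterone libraries 1665 to 5054 CPM, with overlap. In the lens, 9 of 36 tested crystallins were lower and none was higher, with 14 lower without testosterone clutch 2. crybb1 (ENSDARG00000068507) had 92.4, 83.4 and 70.5 CPM with calindol, against 331, 248 and 256 CPM with testosterone alone (adjusted p 4.46e-05, log2 fold change −1.76 ± 0.198 SE) and did not overlap. Crystallins are a family of similar sequences, so counts of single members are uncertain.

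Genes of protein synthesis and respiration were slightly higher in large part. Of 72 tested cytosolic ribosomal protein genes 58 were higher and none was lower (median log2 fold change 0.30). rpl31 (ENSDARG00000053365) had 1209, 1095 and 1173 CPM with calindol, against 831, 914 and 838 CPM with testosterone alone (adjusted p 0.00117, log2 fold change 0.43 ± 0.0779 SE), without overlap. Their summed level was 67357 to 76039 CPM with calindol, 56567 to 60831 CPM with testosterone alone and 53261 to 55749 CPM with DMSO. Of 76 tested nuclear-encoded subunits of oxidative phosphorylation 39 were higher and none was lower (median 0.26), among them cox6c (adjusted p 0.000642, log2 fold change 0.40 ± 0.0672 SE). Summed, these 76 genes held 12320 to 13533 CPM with calindol, 11316 to 11803 CPM with testosterone alone and 12630.5 to 13188 CPM with DMSO. The calindol and DMSO ranges thus overlapped. After removal of the span trend 40 ribosomal and 23 respiratory genes were higher, and in the fit of only the 6 libraries 47 and 25. Of all genes, 2273 of 20237 and 1370 of 19664 were higher in these 2 fits. Mitochondrial ribosomal proteins (2 higher and 1 lower of 63) and proteasome subunits (1 higher and 5 lower of 45) were called in smaller shares than all genes, although without testosterone clutch 2 the proteasome had 9 higher and 3 lower. CPM are shares of a library, and of the 50 most abundant genes 26 were higher and 1 was lower. The part of these abundant genes in the lower values of rarer ones was not tested. Scaling by DESeq2 size factors moved the median of all genes by less than 0.1 and gave 2185 higher and 3062 lower genes.

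Of the genes that bind translation factors, the eIF4E-binding proteins, which hold back protein synthesis, were higher. eif4ebp3l (ENSDARG00000041607) had 80.0, 74.1 and 67.2 CPM with calindol, against 37.4, 47.2 and 48.8 CPM with testosterone alone (adjusted p 0.000187, log2 fold change 0.73 ± 0.101 SE), and eif4ebp1 was higher too (adjusted p 0.000605, log2 fold change 1.098 ± 0.181 SE). The initiation factor gene eif4g1a was lower (adjusted p 0.000221, log2 fold change −0.49 ± 0.0698 SE). Over all 56 tested initiation factor genes 12 were higher (21.4%) and 11 lower (19.6%), against 11% and 14.8% of all genes.

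Among growing tissues, the 6 genes of the replicative helicase, mcm2 to mcm7, were all lower, each by a small amount, and no other of the 21 tested cell division genes passed. The wider family of replication factors had 8 of 35 lower (22.9%, against 14.8% of all genes), the others being mcm3ap (adjusted p 0.0142, log2 fold change −0.29 ± 0.079 SE) and the thinly counted pole3, with 0, 0.0506 and 0 CPM with calindol, against 4.30, 0.325 and 0.131 CPM with testosterone alone (adjusted p 0.0127). mcm5 (ENSDARG00000019507) had 103, 99.8 and 99.4 CPM with calindol, against 123, 134 and 123 CPM with testosterone alone (adjusted p 0.00488, log2 fold change −0.33 ± 0.0749 SE), and mcm6 fell most (adjusted p 0.00368, log2 fold change −0.42 ± 0.0909 SE). The call of mcm2 (log2 fold change −0.37, adjusted p 0.00276) was lost after removal of the span trend, at 0.224. Cartilage had 6 of 15 tested genes lower (40%) and 1 higher (6.67%), against 14.8% and 11% of all genes. The cartilage collagen gene col11a2 (ENSDARG00000012422) had 471, 591 and 475 CPM with calindol, against 896, 856 and 819.9 CPM with testosterone alone (adjusted p 5.41e-05, log2 fold change −0.74 ± 0.0867 SE), and the cartilage regulators sox9a (adjusted p 0.00137, log2 fold change −0.45 ± 0.0845 SE) and sox9b (adjusted p 9.27e-05, log2 fold change −0.77 ± 0.0973 SE) were lower. The exception was col10a1a, of maturing cartilage and bone (adjusted p 0.000512, log2 fold change 0.49 ± 0.0788 SE). Of 49 tested collagens 8 were lower (16.3%, near the 14.8% of all genes), among them col9a1b (adjusted p 0.000354, log2 fold change −1.29 ± 0.197 SE), and 2 were higher, a count of 4 without testosterone clutch 1 and of 1 without testosterone clutch 4, calindol clutch 1 or calindol clutch 4.

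Skeletal muscle had 9 of 26 tested genes higher and none lower, by small amounts, such as pvalb1 (parvalbumin, adjusted p 0.00395, log2 fold change 0.34 ± 0.0754 SE) and tnnt3b (troponin T, adjusted p 0.0057, log2 fold change 0.32 ± 0.074 SE). In the heart few genes passed. Of 18 tested genes of the heart sarcomere and natriuretic peptides 1 was higher (myl4, adjusted p 0.00419, log2 fold change 0.48 ± 0.105 SE) and 1 was lower (ttn.1), of 9 heart transcription factors 1 was higher (gata4) and 1 lower (mef2ca), and none of 8 calcium handling genes passed. The summed level of the sarcomere and natriuretic peptide list was 3292 to 3528 CPM with calindol and 3652 to 4385 CPM with testosterone alone, without overlap, and ttn.1 itself, at 1182 ± 97.8 CPM with calindol and 1629 ± 187 CPM with testosterone alone (SD, n = 3 each), was part of it. Gene by gene, the list had a median log2 fold change of 0.05, with 11 of 18 positive. The call of ttn.1 (log2 fold change −0.46) was lost without testosterone clutch 1 or 2 or calindol clutch 1 and after removal of the span trend, at an adjusted p of up to 0.196. The call of gata4 was lost without calindol clutch 1, at 0.0508, and that of mef2ca in 7 of 13 alternative fits, at up to 0.801. The natriuretic peptide genes nppa and nppb did not pass, at 0.35 (adjusted p 0.0655) and 0.32 (adjusted p 0.772) on the log2 scale. Hox cluster genes (1 higher and 2 lower of 44), Wnt ligands and frizzled receptors (1 and 3 of 34), keratins (2 and 0 of 14), erythroid genes (2 and 0 of 14) and ionocyte genes (2 and 0 of 12) were at or below the shares of all genes for the 2 directions together, 25.8%.

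The genes with the largest changes included several not described above. Higher with calindol were the ammonia channel gene rhcga (ENSDARG00000003203), with 6.62, 3.59 and 8.60 CPM with calindol, against 1.83, 0.651 and 1.05 CPM with testosterone alone (adjusted p 0.000204, log2 fold change 2.47 ± 0.349 SE), and plekhs1, with 18.01, 10.9 and 9.71 CPM with calindol, against 0.557, 0.976 and 1.31 CPM with testosterone alone (adjusted p 6.46e-06, log2 fold change 3.68 ± 0.288 SE). Both were lower than in DMSO embryos in each exposed group mean, DMSO embryos having 18.6 ± 2.79 and 21.4 ± 3.09 CPM. Also higher were urgcp (adjusted p 5.41e-05, log2 fold change 3.06 ± 0.356 SE), ponzr5 (adjusted p 0.000126, log2 fold change 3.04 ± 0.402 SE), the innate immune gene nlrc5 (adjusted p 0.00124, log2 fold change 2.96 ± 0.543 SE) and the chemokine gene cxcl19 (adjusted p 0.0111, log2 fold change 2.94 ± 0.767 SE), the last at an adjusted p of 0.0505 without testosterone clutch 4. Lower with calindol was ggact.3 (ENSDARG00000070579), which had no count with calindol, against 2.39, 2.76 and 4.98 CPM with testosterone alone, at least 20.3-fold lower with a floor of 3 counts in each library (adjusted p 0.000641). DMSO embryos had no count of it either. The dual oxidase gene duox (ENSDARG00000062632) had 4.56, 2.99 and 2.33 CPM with calindol, against 19.7, 11.7 and 16.6 CPM with testosterone alone (adjusted p 5.09e-05, log2 fold change −2.27 ± 0.26 SE), and DMSO embryos had 3.38 ± 0.755 CPM. Also lower were sco1 (adjusted p 0.000427, log2 fold change −3.02 ± 0.474 SE), which helps assemble cytochrome oxidase, the C-reactive protein gene crp3 (adjusted p 0.0042, log2 fold change −2.60 ± 0.576 SE), dgcr2 (adjusted p 0.000176, log2 fold change −2.42 ± 0.335 SE), znf1024 (adjusted p 0.00567, log2 fold change −2.35 ± 0.546 SE) and the potassium channel gene kcnj1a.3 (adjusted p 0.00069, log2 fold change −2.05 ± 0.345 SE). The last genes of the naming rule were fam102ab (log2 fold change −2.45) and cyp2x7 (log2 fold change −2.06), whose calls were both lost without testosterone clutch 4 or calindol clutch 2 or 4 and in the fit of only the 6 libraries, at adjusted p up to 0.0935 and 0.0935.

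Calindol and EGCG, both given with testosterone, could be compared directly, although their doses of 5 and 100 µM differ and no match of dose was made. At an adjusted p under 0.05, 8719 genes (43.1%) differed between calindol and EGCG, 4458 higher with calindol and 4261 lower. With DESeq2 size factors the split was 4023 higher and 4460 lower, so the balance of directions rests on the scaling. Gene span mattered here too: the median log2 fold change of calindol over EGCG was 0.16 in the shortest decile and −0.42 in the longest. After removal of the span trend 8126 genes differed, 4045 higher and 4081 lower. The AhR marker cyp1a differed, with 345, 345 and 834 CPM with calindol, against 7.82, 9.30 and 8.31 CPM with EGCG (log2 fold change 5.89, adjusted p 6e-08). The light-induced gene per2 was lower with calindol (log2 fold change −2.23, adjusted p 5.71e-08), as were he1.1 (log2 fold change −3.98, adjusted p 5.99e-07) and the neuron marker elavl4, with 243, 316 and 259 CPM with calindol, against 667, 713 and 598 CPM with EGCG (log2 fold change −1.27, adjusted p 4.38e-07). Glucose genes differed as well, with pck1 higher with calindol (log2 fold change 2.22, adjusted p 5.64e-07) and gck at 0.922, 1.11 and 1.11 CPM with calindol, against 2.13, 8.98 and 4.96 CPM with EGCG (log2 fold change −2.41, adjusted p 0.00338). The aromatase gene cyp19a1b did not pass between them (log2 fold change 0.02, adjusted p 0.954), at 49.4 ± 12.01 CPM with calindol and 48.9 ± 5.20 CPM with EGCG (SD, n = 3 each).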

How the data were processed

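RNA was sequenced from whole zebrafish embryos in 12 libraries, 3 per group. The deposited values are raw counts per gene made by the authors with Trim Galore 0.6.10, STAR 2.7.1a and featureCounts on the genome build GRCz11, per the submitters' processing notes; the annotation, strand setting and handling of reads that map to several genes are not given in the sources used here. Of 32520 genes listed, 5732 had no count.

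Counts were tested with edgeR 4.0.16 (R 4.3.3): filterByExpr with a minimum count of 10, TMM scaling, 1 mean per group over all 12 libraries, the quasi-likelihood test and Benjamini-Hochberg adjustment over 20237 genes, with 0.05 as the threshold. The script was checked on simulated counts. Libraries held 8181295 to 22510680 counts. Alternatives were DESeq2 1.42.0 (size factors and test), other filters on low counts, the clutch as a block, only the 6 libraries, removal of a trend with gene span, a minimum fold change and each library left out. Gene spans came from RefSeq gene models of GRCz12tu, another assembly than that of the counts. Intervals of counting error are not given; replicates set the error.

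The comparison, its gene lists and families were chosen with earlier results of these data known. Genes named are the 12 highest and 12 lowest fold changes with a mean of at least 1 CPM, no overlap and a symbol of 1 identifier; up to 4 members per list and direction with the smallest p, and each list's regulator; and gprc6a, casr, ar and cyp1a. Members that did not pass, named for contrast, and ahrra, nqo1, mpx, pole3 and mcm3ap were chosen after their values were seen. Libraries with the same clutch number in the labels were taken to share a clutch and to be paired, which the labels do not state outright. Deviations of calindol and testosterone libraries with the same clutch number correlated at 0.0453, 0.00207 and 0.0703. Nothing in the labels says how many embryos or tanks a library pools. The p-values of the main fit rest on the spread between clutches within a group, pooled over all 12 libraries. They do not use the pairing by clutch.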

Additional observations from a re-analysis of the deposited data

How the results depend on the processing

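The 5225 genes called for calindol added to testosterone became 3303 in the fit of only the 6 libraries and 761 once a shift of 1 log2 unit or more was also required, and 4049 to 5456 when 1 library was left out. The other comparisons gave 429 (testosterone against DMSO), 848 (testosterone with calindol against DMSO) and 2065 (calindol against EGCG) genes at that fold, and 624 to 1166, 4115 to 5239 and 7074 to 8294 with 1 library left out. Testosterone against DMSO gave 624, 744 and 705 without DMSO clutch 1, 2 and 4. Of 394 named genes, 334 passed. Setting aside the minimum fold change, 241 of them passed under every alternative that gave them a value (10 to 13 alternatives a gene) and 93 lost the call in at least 1. No named gene reversed. With the clutch as a replicate block, which pairs the libraries, 4859 genes passed, 4756 of them shared with the 5225, and the other comparisons gave 1082, 5230 and 8458. Genes with few counts, such as casr, could not be tested at this depth. The causes of these shifts were not tested.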

Other observations

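The yolk protein genes vtg4, vtg5 and vtg6 had most of their counts in calindol clutch 1 and EGCG clutch 4. The vitellogenin gene vtg5 had 259, 10 and 0 counts with calindol in clutches 1, 2 and 4, 0, 0 and 115 with EGCG and testosterone, 0, 1 and 0 with testosterone alone, and 0 in each DMSO library. The genes vtg4 (95, 4 and 0 counts with calindol) and vtg6 (34, 1 and 1 counts with calindol) were high in the same calindol library, and in EGCG clutch 4 they had 37 and 23 counts.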
